A study of Mus musculus with 9 samples.

Results

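The 10 genes described here form the nuclear end of the mouse Hippo pathway and its nearest regulators. They are Yap1 and Wwtr1 (the gene of TAZ), the transcription factor genes Tead1, Tead2, Tead3 and Tead4, the kinase genes Lats1 and Lats2, and the angiomotin-like genes Amotl1 and Amotl2. They were chosen by symbol, through their Ensembl identifiers, from the 41214 features of a table of expected counts. All 10 matched 1 feature each, and all 10 passed the filter on low counts.

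The table held bulk RNA-seq of 9 libraries from sorted cardiac endothelial cells, with 3 libraries each of an endocardial, an arterial-enriched and a venous-enriched population. The embryos were taken at E17.5, after 0.1 ug of tamoxifen at E15.5, and all carried the reporter transgene Nes-Gfp(Tg/0), the recombinase transgene Nes-CreER(Tg/0) and the Tomato allele R26(tom/+). Nestin regulatory sequence drives both transgenes, so GFP and Tomato mark cells in which it is or was active. Cells came from liberase-digested ventricles without atria and aortic region. Every sorted cell was viable, Ter119-, CD45-, CD31+ and GFP+. The endocardial gate names no further marker. The arterial-enriched gate adds Emcn-low and Tomato+, and holds intramyocardial arterial vessels and capillaries. The venous-enriched gate adds Emcn-low, Tomato- and GFP-low, and holds subepicardial venous vessels. The arterial and venous libraries together are called coronary. The labels do not say whether a replicate is 1 embryo or a pool, so that a p-value reflects only how these libraries spread, and that spread may be technical.

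The Hippo pathway is a kinase cascade that keeps tissue growth in check. The kinases MST1 and MST2 (Stk4 and Stk3) activate LATS1 and LATS2, which phosphorylate YAP and TAZ and hold them in the cytoplasm. When this brake is off, YAP and TAZ enter the nucleus and drive transcription with the TEAD proteins, which bind DNA and cannot activate well alone. Motins (AMOT, AMOTL1 and AMOTL2) bind YAP and TAZ at cell junctions and the actin cytoskeleton, and also promote LATS activity. In endothelium YAP and TAZ act in sprouting, junction turnover and the response to blood flow. Activity of the pathway is set largely by phosphorylation and location of proteins, which transcript levels do not measure.

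RefSeq promoter windows on GRCm38.p6, 250 bases before to 50 bases after a transcription start, were matched by symbol for 8 of the 10 genes, in 12 windows. Tead1 and Tead4 were not matched. The TEAD core GGAATG was searched on both strands (CATTCC on the other). It was present in 7 of the 12 windows, some of which overlap each other, and in 5 of the 8 genes, namely Amotl2, Lats2, Tead3, Wwtr1 and Yap1. Of all 32817 promoter windows 14.7% held it, and of all 26994 genes with a window 16.6% did. The AP-1 motif TGANTCA, which reads the same on both strands, was in 0 of the 12 windows and in 7.81% of all windows, so no match of it overlapped a TEAD core. Windows of Amotl2 (chr9:102717554-102717853, plus strand), Yap1 (chr9:8004547-8004846, minus strand) and Amotl1 (chr9:14614951-14615250, minus strand) are printed 5′ to 3′, with the core in capitals, because the transcripts of these 3 genes differed between the populations.
Amotl2: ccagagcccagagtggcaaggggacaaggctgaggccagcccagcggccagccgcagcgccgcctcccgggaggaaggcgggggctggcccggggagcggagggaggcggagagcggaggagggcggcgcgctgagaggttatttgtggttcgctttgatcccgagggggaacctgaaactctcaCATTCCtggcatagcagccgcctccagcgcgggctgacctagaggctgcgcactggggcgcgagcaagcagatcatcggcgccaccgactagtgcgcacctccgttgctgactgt
Yap1: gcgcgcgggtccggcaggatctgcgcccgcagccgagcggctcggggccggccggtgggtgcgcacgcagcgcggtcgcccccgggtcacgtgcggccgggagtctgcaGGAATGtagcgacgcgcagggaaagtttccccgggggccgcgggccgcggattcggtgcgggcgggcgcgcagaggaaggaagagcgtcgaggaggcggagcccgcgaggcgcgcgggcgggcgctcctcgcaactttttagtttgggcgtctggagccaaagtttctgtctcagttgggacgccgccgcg
Amotl1: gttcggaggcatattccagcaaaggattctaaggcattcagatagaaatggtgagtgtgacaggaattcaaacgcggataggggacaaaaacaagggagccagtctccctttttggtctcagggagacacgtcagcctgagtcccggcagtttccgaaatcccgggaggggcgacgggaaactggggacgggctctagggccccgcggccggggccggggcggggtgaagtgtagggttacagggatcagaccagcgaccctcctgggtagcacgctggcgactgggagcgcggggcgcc
The core began 65 bases before the start in Amotl2, as CATTCC, and 141 bases before it in Yap1, as GGAATG. The window of Amotl1 held no core. In the annotation used for lengths, Amotl1 runs from 14541966 to 14645056 and Amotl2 from 102716672 to 102733418. The windows of both lie inside these bounds, so the outermost starts of these 2 genes were not searched. A match is a description of the letters and does not show that a TEAD protein binds there.

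The libraries held 12750553 to 19474419 counts each. Levels are given in CPM, the count scaled to library size, after TMM scaling, and per-library values follow the order of replicates 1, 2 and 3. Endocardial markers summed to 3796 to 4570 CPM in endocardial, 94.1 to 109 CPM in arterial and 276 to 399 CPM in venous libraries. Arterial markers summed to 419 to 475, 820 to 1028 and 365 to 421 CPM in the same order, and venous markers to 409 to 632, 622 to 792 and 1088 to 1343 CPM. The sum of each list was highest in the population it names, but single markers went otherwise. Bmx, an arterial marker, averaged 81.4 CPM in endocardial and 19.2 CPM in arterial libraries. The venous markers Nr2f2 (123 CPM, against 54.7 in venous libraries) and Ephb4 (103 against 80.6) were also highest in endocardial libraries. Tbx20, an endocardial marker, was highest in venous libraries (135 CPM, against 87.7 in endocardial ones). Pan-endothelial markers were high in all 9, at 3286 to 4326, 5030 to 6888 and 4740 to 6129 CPM. Fibroblast markers were also present, at 1697 to 2057 CPM in the endocardial, 113 to 129 CPM in the arterial and 1438 to 1676 CPM in the venous libraries. Postn (means 1045, 60.3 and 573 CPM) was most of the endocardial sums. Of the 12 fibroblast markers, 4 were called higher and 3 lower in endocardial than in venous libraries. Cardiomyocyte markers summed to 530 to 636, 282 to 413 and 422 to 587 CPM in the same order, with 3 of 13 tested called higher in endocardial than in coronary libraries and 4 than in arterial ones. Summed mural markers were lowest in endocardial libraries (84.7 to 151, 535 to 846 and 241 to 347 CPM). So were the erythroid sums (72.2 to 241, 535 to 1208 and 226 to 382 CPM) and epicardial sums (27.5 to 35.8, 185 to 215 and 157 to 185 CPM). Abcc9 (means 48.7, 515 and 201 CPM) was most of the coronary mural sums, while Pdgfrb went the other way (40.8, 14.7 and 9.39). Against coronary libraries 1 of 11 mural markers was called higher and 3 lower. Wt1 (20, 188 and 146 CPM) was most of the coronary epicardial sums. Of 8 epicardial markers tested, 0 were called higher and 1 lower, and 4 had a log2 fold change above 0. Leukocyte markers stayed at 17 CPM or less. The part of these cell types in the results was not tested. Endocardial replicate 1 differed from its group, lying at 139 on the second principal component of all genes against 1.8 and -16.2 for replicates 2 and 3. Without it, the 3 calls made among the 10 genes against coronary libraries held, at edgeR adjusted p of 0.012 for Yap1, 0.00124 for Amotl1 and 0.000367 for Amotl2.

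The first comparison set the endocardium, the inner lining of the heart chambers, against the coronary vessels. Of the 10 genes, 3 were higher in endocardial than in coronary libraries, 0 were lower and 7 were not called. The 3 were the motin genes Amotl2 and Amotl1 and the co-activator gene Yap1. A gene was called at an adjusted p under 0.05 in edgeR's quasi-likelihood test with Benjamini-Hochberg adjustment over 17103 genes. That rule called 2379 genes (13.9%), of which 1181 (6.91%) were higher and 1198 (7%) lower. The median log2 fold change was 0.35 over the 10 genes and 0.0772 over all genes tested. In 2 genes the 3 endocardial libraries lay above all 6 coronary ones and in 0 below them, against 8.55% and 9.1% of all genes. In bulk RNA, fewer cells of a type and less RNA per cell cannot be told apart.

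**Figure D1:**
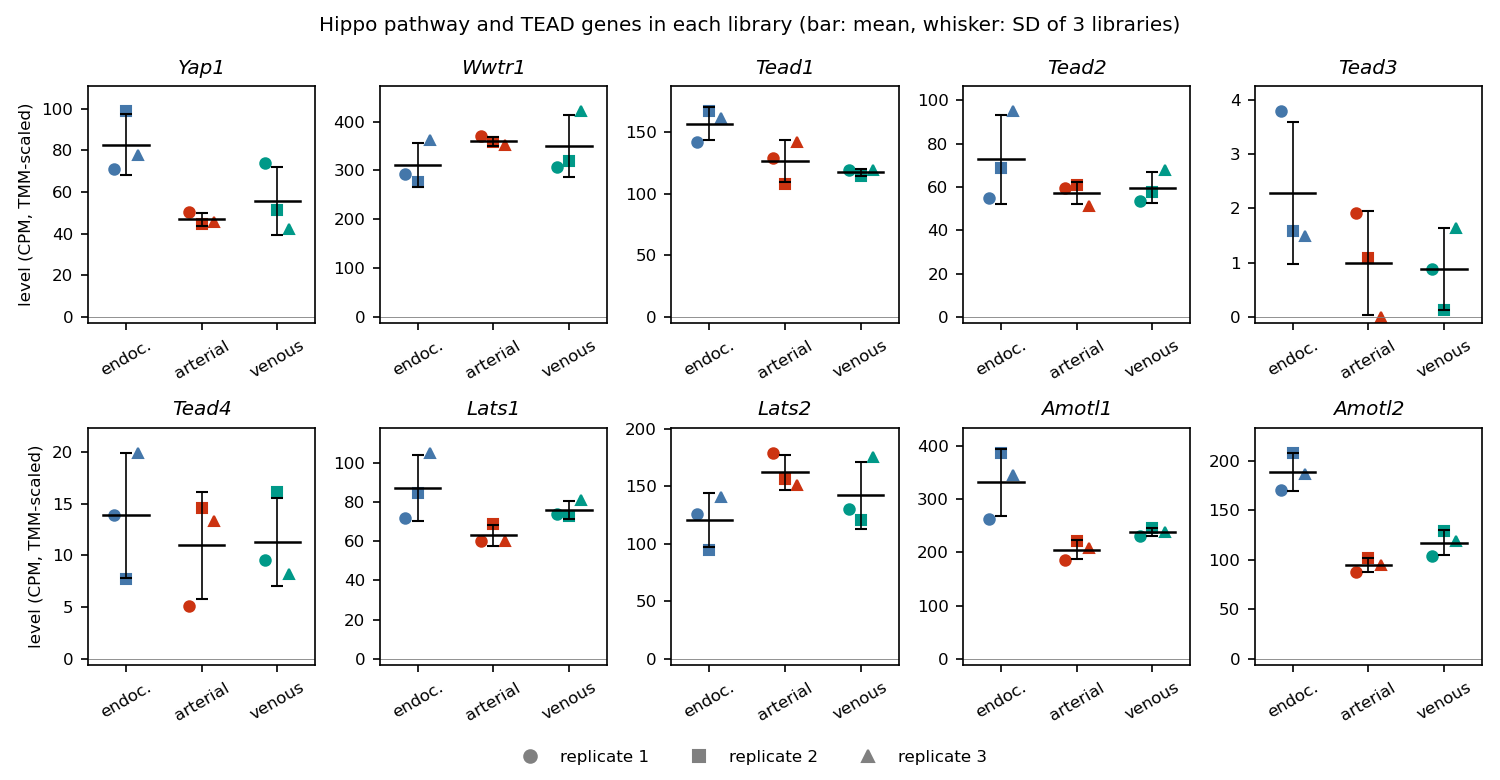
Level of each gene in each of the 9 libraries, in CPM after TMM scaling (vertical axis from 0, scaled per gene), for endocardial, arterial and venous libraries from left to right. Symbols mark replicates 1 to 3, bars the mean and whiskers the SD. The 3 endocardial libraries lie above the 6 coronary ones for Amotl1 (262 CPM or more against 246 or less) and Amotl2 (170 or more against 129 or less).

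Motins gave the clearest difference among the 10 genes. Amotl2 (chromosome 9, 102716672 to 102733418, plus strand) encodes a junction scaffold that ties VE-cadherin to actin in endothelial cells. It had 170, 208 and 187 CPM in endocardial, 87.6, 102 and 95.2 CPM in arterial and 104, 129 and 119 CPM in the venous libraries. Every endocardial library was above every coronary one, with a wide gap. The fold was 1.78 against coronary libraries (log2 0.83 ± 0.14 SE, 95% interval 0.54 to 1.13, edgeR adjusted p = 0.000437). Against the arterial libraries alone it was 1.98 (log2 0.98 ± 0.17, edgeR adjusted p = 0.000582). Against the venous libraries alone it was 1.61 (log2 0.69 ± 0.17, edgeR adjusted p = 0.0121). The 3 contrasts share the endocardial libraries. In each of the 3 batches, endocardial Amotl2 was above both coronary libraries, which already follows from the lack of overlap. The calls against coronary and against arterial libraries held under every alternative run. The call against venous libraries ended without endocardial replicate 2 (edgeR adjusted p = 0.105), venous replicate 1 (0.0953) or venous replicate 3 (0.0609).

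Amotl1 (chromosome 9, 14541966 to 14645056, minus strand) encodes a second angiomotin-like protein that binds YAP and TAZ. Its levels were 262, 387 and 345 CPM in endocardial, 186, 221 and 209 CPM in arterial and 231, 246 and 238 CPM in the venous libraries. The lowest endocardial library, replicate 1, was close to the highest venous one, and no endocardial library overlapped a coronary one. Amotl1 was 1.5-fold higher than in coronary libraries (log2 0.58 ± 0.14, 95% interval 0.28 to 0.88, edgeR adjusted p = 0.00891). It was 1.61-fold higher than in arterial libraries (log2 0.69 ± 0.17, edgeR adjusted p = 0.0105). Against venous libraries the fold was 1.39 (log2 0.48 ± 0.17, 95% interval 0.13 to 0.83) and missed the threshold (edgeR adjusted p = 0.0871). That comparison passed without endocardial replicate 1 (edgeR adjusted p = 0.0178) and with DESeq2 (adjusted p = 0.0292). The call against coronary libraries ended without endocardial replicate 2 (edgeR adjusted p = 0.132) or replicate 3 (0.0531), and that against arterial libraries without endocardial replicate 2 (0.0957).

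The founding motin gene Amot, which is not among the 10 genes and was listed with the regulators, was also called. It stood at 125, 139 and 160 CPM in endocardial, 47.5, 47.8 and 30.4 CPM in arterial and 64.5, 49 and 61.3 CPM in the venous libraries. The endocardial libraries lay far above all others (log2 1.52 ± 0.17 against coronary, edgeR adjusted p = 9.75e-06). Per kilobase of exon, the 3 motin genes together summed to 67.9, 88.1 and 83 CPM in endocardial, 38, 44 and 39.5 CPM in arterial and 47.1, 50.7 and 49.9 CPM in the venous libraries. Amotl1 was the largest part of that sum in 8 of the 9 libraries, with 38.3% to 43.7% in endocardial and 47.4% to 52.6% in coronary libraries. In endocardial replicate 1 it was 38.3%, against 39.8% for Amotl2. Amot made up 18.8% to 23% in endocardial, 9.15% to 14.9% in arterial and 11.5% to 16.3% in venous libraries.

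**Figure D2:**
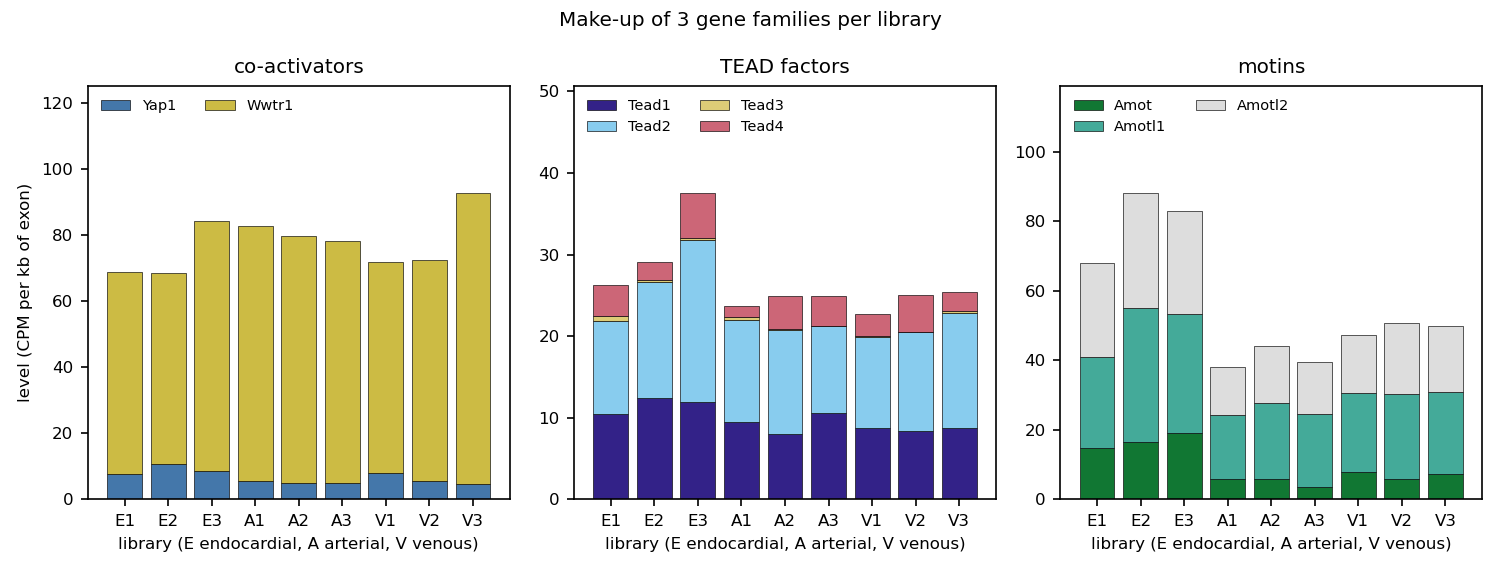
Summed level per kilobase of exon (vertical axis, CPM per kb) of the co-activators, the TEAD factors and the motins in each library (E endocardial, A arterial, V venous, with the replicate number), split by gene in colour. Motin sums are 67.9 or more in endocardial and 50.7 or less in coronary libraries, while Wwtr1 takes 84.4% or more of the co-activator sum in every library.

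The co-activator genes Yap1 and Wwtr1 had unlike patterns. Yap1 (chromosome 9, 7931999 to 8004596, minus strand) had 70.9, 99 and 78 CPM in endocardial, 50.2, 44.5 and 45.8 CPM in arterial and 73.7, 51.6 and 42.1 CPM in the venous libraries. All endocardial libraries were above all arterial ones, while venous replicate 1 was above endocardial replicate 1. Yap1 was 1.62-fold higher than in coronary libraries (log2 0.69 ± 0.19, 95% interval 0.29 to 1.09, edgeR adjusted p = 0.0192). It was 1.76-fold higher than in arterial libraries (log2 0.82 ± 0.22, edgeR adjusted p = 0.0234). The difference from venous libraries was not called (log2 0.57 ± 0.22, 95% interval 0.10 to 1.04, edgeR adjusted p = 0.136), and it passed without venous replicate 1 (0.0486). Endocardial Yap1 was above both coronary libraries in 2 of 3 batches. The call against coronary libraries ended without endocardial replicate 2 (edgeR adjusted p = 0.161) or venous replicate 3 (0.0583), and that against arterial libraries without endocardial replicate 2 (0.127), arterial replicate 2 (0.0743) or arterial replicate 3 (0.0698). Exons of Yap1 share 116 bases (1.3%) with those of the predicted gene Gm20416 on the opposite strand, which had at most 30 counts in a library.

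Wwtr1 (chromosome 3, 57455649 to 57575910, minus strand) encodes TAZ, the paralogue of YAP. It had 293, 277 and 363 CPM in endocardial, 370, 358 and 351 CPM in arterial and 306, 320 and 422 CPM in the venous libraries. The populations overlapped, and no contrast was called. Its log2 difference from coronary libraries was -0.19 ± 0.14 (95% interval -0.49 to 0.12, edgeR adjusted p = 0.493). Per kilobase of exon Wwtr1 was the highest of the 10 genes, at 65.1 ± 9.55 CPM in endocardial, 75.2 ± 2 CPM in arterial and 73.1 ± 13.2 CPM in the venous libraries (SD, n = 3 each). Yap1 stood at 8.93 ± 1.58, 5.06 ± 0.322 and 6.02 ± 1.75 CPM per kb in the same order. Yap1 thus made up 11.1%, 15.6% and 9.99% of the pair in endocardial, 6.55%, 6.03% and 6.32% in arterial and 11%, 7.67% and 4.9% in venous libraries. The share in venous replicate 1 was inside the endocardial range. With the longest transcript as the length the shares of Yap1 were higher in every library, from 16% to 24.1% in endocardial, 9.95% to 10.8% in arterial and 8.15% to 17.6% in venous libraries.

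**Figure D3:**
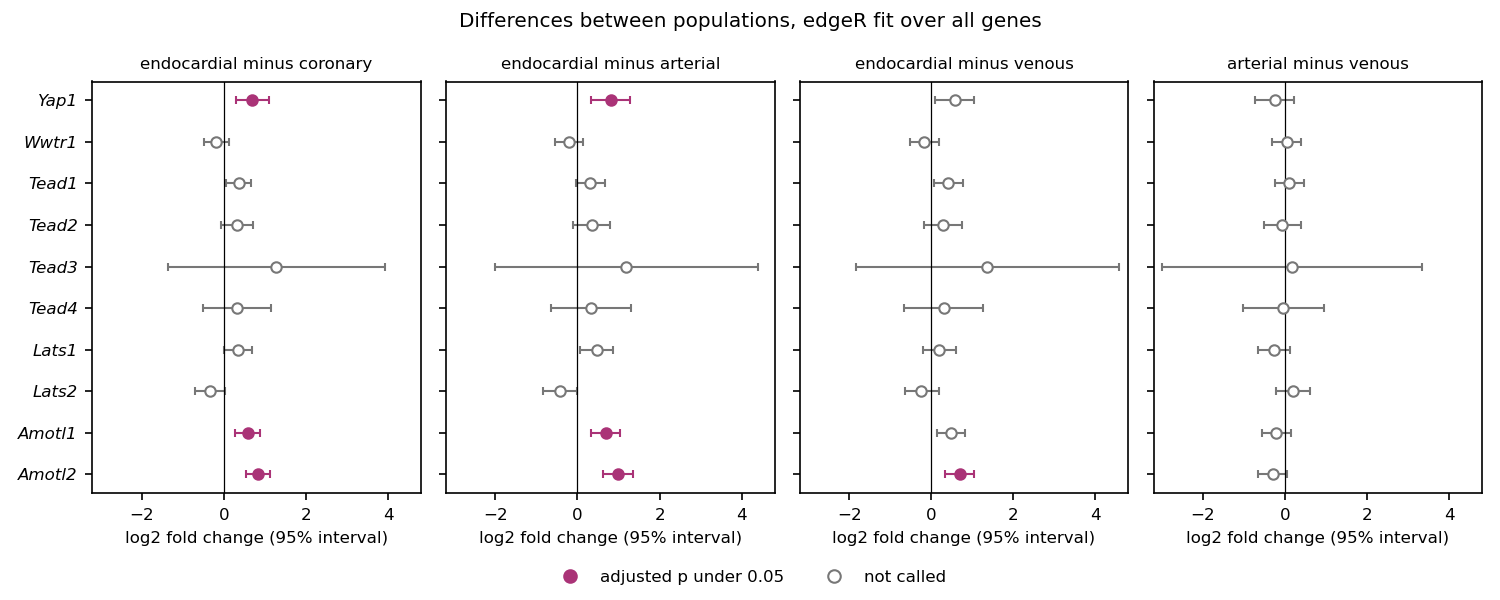
Log2 fold change (horizontal axis) of each gene in 4 comparisons with its 95% interval from the edgeR fit, filled where the adjusted p was under 0.05. Amotl2 is filled in the 3 panels that hold the endocardium (0.83, 0.98 and 0.69), and no gene is filled in the arterial minus venous panel.

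The TEAD genes encode the DNA-binding partners of YAP and TAZ, and none of the 4 was called by edgeR in any comparison. Tead1 (chromosome 7, 112679318 to 112906807, plus strand) had 142, 167 and 161 CPM in endocardial, 129, 108 and 142 CPM in arterial and 119, 114 and 119 CPM in the venous libraries. The endocardial libraries were above all venous ones, and endocardial replicate 1 and arterial replicate 3 were level. The log2 difference from coronary libraries was 0.36 ± 0.14 (95% interval 0.06 to 0.66, edgeR adjusted p = 0.109). Against venous libraries it was 0.42 ± 0.17 (edgeR adjusted p = 0.137). DESeq2 called both, at adjusted p of 0.0462 and 0.0487.

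Tead2 (chromosome 7, 45215753 to 45233644, plus strand) is a TEAD gene of embryonic tissue. It had 54.8, 68.7 and 95.2 CPM in endocardial, 59.7, 60.9 and 51.3 CPM in arterial and 53.5, 57.9 and 67.8 CPM in the venous libraries. Endocardial replicate 3 was the highest of the 9 and the populations overlapped (log2 0.32 ± 0.19 against coronary, 95% interval -0.07 to 0.71, edgeR adjusted p = 0.328). Exons of Tead2 share 13 bases with the opposite-strand gene Cd37, which had at most 40 counts in a library. Tead4 (chromosome 6, 128224288 to 128300823, minus strand) is known from the trophectoderm and muscle. It had 13.9, 7.77 and 19.9 CPM in endocardial, 5.07, 14.6 and 13.3 CPM in arterial and 9.57, 16.1 and 8.19 CPM in the venous libraries. The spread within each population was as wide as the range between them (log2 0.32 ± 0.39 against coronary, 95% interval -0.51 to 1.15, edgeR adjusted p = 0.705). Its sign changed when endocardial replicate 3 was left out (log2 -0.04).

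Tead3 (chromosome 17, 28331671 to 28350817, minus strand) was at the edge of detection. It had 3.8, 1.58 and 1.49 CPM in endocardial, 1.91, 1.09 and 0 CPM in arterial and 0.886, 0.123 and 1.64 CPM in the venous libraries, with at most 50 counts. A count of 0 in arterial replicate 3 allows up to 3 counts, or 0.22 CPM, from counting error alone. The log2 interval against coronary libraries ran from -1.36 to 3.92, so that a several-fold difference either way was not detectable at this depth. Per kilobase of exon, Tead2 held 43% to 55.7% of the TEAD sum over the 9 libraries, Tead1 31.6% to 42.4%, Tead4 5.95% to 17.9% and Tead3 0% to 2.15%. The sums were 26.3, 29.1 and 37.5 CPM per kb in endocardial, 23.7, 24.9 and 24.9 in arterial and 22.7, 25 and 25.4 in venous libraries. Tead2 was the largest part and Tead1 the next in every library.

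The kinase genes Lats1 and Lats2 had estimates of opposite sign, and neither was called. Lats1 (chromosome 10, 7681214 to 7716460, plus strand) had 71.8, 84.5 and 105 CPM in endocardial, 59.9, 68.8 and 60 CPM in arterial and 73.6, 73 and 80.9 CPM in the venous libraries. The endocardial libraries were above the arterial ones and overlapped the venous ones. The log2 difference was 0.47 ± 0.19 against arterial (95% interval 0.07 to 0.87, edgeR adjusted p = 0.136) and 0.34 ± 0.16 against coronary libraries (edgeR adjusted p = 0.207). Lats2 (chromosome 14, 57689662 to 57758388, minus strand), itself a known target of YAP and TAZ, had 126, 94.6 and 141 CPM in endocardial, 179, 156 and 151 CPM in arterial and 130, 121 and 175 CPM in the venous libraries. All endocardial libraries were below all arterial ones. The log2 difference was -0.43 ± 0.19 against arterial (95% interval -0.84 to -0.02, edgeR adjusted p = 0.206) and -0.33 ± 0.17 against coronary libraries (edgeR adjusted p = 0.251). Per kilobase of exon, Lats1 was 35.3%, 46% and 41.7% of the pair in endocardial, 24.2%, 29.7% and 27.5% in arterial and 35.2%, 36.5% and 30.7% in venous libraries. The share in every endocardial library was above that in every arterial one, and endocardial and venous libraries overlapped. In the later annotation used for lengths, 2955 bases (42.4%) of the Lats2 exons also belong to the same-strand predicted gene Gm49361, which was not analysed here.

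By level per kilobase of exon, averaged over the 9 libraries, the order was Wwtr1 (71.2 CPM per kb), Amotl1 (25.7), Amotl2 (21.2), Lats2 (20.3), Tead2 (13.2), Lats1 (10.3), Tead1 (9.83), Yap1 (6.67), Tead4 (3.35) and Tead3 (0.207). Some neighbours did not differ beyond their spread. In endocardial libraries Amotl1 (32.9 ± 6.35) and Amotl2 (29.9 ± 3) lay within an SD of each other, as did Lats1 (12 ± 2.33) and Tead1 (11.5 ± 0.973), and Tead2 (15.2 ± 4.29) and Lats1 (SD, n = 3 each). With the longest transcript as length Amotl2 came before Amotl1 and both Tead1 and Yap1 before Lats1. Wwtr1 stayed the highest and Tead4 and Tead3 the lowest under both lengths.

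Against the arterial libraries alone, 3 of the 10 genes were higher (Amotl2, Amotl1 and Yap1), 0 lower and 7 not called. Of all genes 1996 (11.7%) were called, 5.75% higher and 5.92% lower. The median log2 fold change was 0.41 over the 10 genes and -0.0138 over all genes. Endocardial libraries were all above the arterial ones for Amotl1, Amotl2, Yap1 and Lats1 and all below them for Lats2, against 12.4% and 13.2% of all genes. Against the venous libraries alone, 1 gene (Amotl2) was higher, 0 lower and 9 not called, while 1753 of all genes (10.2%) were called, 4.44% higher and 5.81% lower. The median was 0.36 over the 10 genes and 0.102 over all genes. There the endocardial libraries were all above the venous ones for Amotl1, Amotl2 and Tead1 and for 0 genes all below, against 13.3% and 14.9% of all genes. An unadjusted p under 0.05 was reached by 5 of the 10 genes against arterial and by 4 against venous libraries, and by 3734 and 3751 of all 17103 genes.

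Arterial and venous libraries were compared to ask what sets the coronary populations apart, and none of the 10 genes was called. Here edgeR gave 0 of the 10 genes at an unadjusted p under 0.05, beside 1450 of all 17103 genes. DESeq2 called 0 of the 10, beside 410 of 28652 genes. Over all genes 183 (1.07%) were called, 0.31% higher and 0.76% lower in arterial libraries. The median log2 fold change of the 10 genes was -0.05 against 0.0301 for all genes. Amotl2 gave the largest difference relative to its error (log2 -0.30 ± 0.17, 95% interval -0.65 to 0.05, edgeR adjusted p = 0.698). Arterial libraries were all below venous ones for Amotl1, Amotl2 and Lats1 and all above for 0 genes, against 8.61% and 8.74% of all genes. For Amotl2 the highest arterial library had 102 CPM and the lowest venous one 104. Intervals excluded a 2-fold difference for 8 of the 10 genes, while those of Tead4 (-1.01 to 0.94) and Tead3 (-2.99 to 3.35) did not. These intervals do not show that the populations are alike.

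The wider pathway was described with a list of 46 regulators, of which 45 matched and 42 were tested. Dchs2 did not match, and Vgll1, Vgll2 and Rassf6 did not pass the filter on low counts. Between endocardial and coronary libraries 6 were higher, 8 lower and 28 not called, beside 6.91% higher and 7% lower over all genes. The median log2 fold change was -0.08, against 0.0772 over all genes. Those with the smallest p went both ways. Ptpn14 encodes a junction phosphatase that binds and restrains YAP. It had 198, 377 and 387 CPM in endocardial, 54.8, 84.4 and 89.2 CPM in arterial and 72.8, 78.1 and 66.8 CPM in the venous libraries. Its endocardial replicate 1 was the lowest of the 3 and still above every coronary library (log2 2.11 ± 0.20, edgeR adjusted p = 2.74e-06). Ajuba, a LIM protein that inhibits LATS, averaged 24 ± 2.73 CPM in endocardial, 3.77 ± 1 CPM in arterial and 11 ± 0.581 CPM in the venous libraries (SD, n = 3 each; log2 1.90 ± 0.28 against coronary, edgeR adjusted p = 0.000113).

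Lower regulators included junction and kinase genes. Tjp1 encodes the tight-junction scaffold ZO-1, which can bind TAZ and YAP. It had 389, 409 and 432 CPM in endocardial, 1312, 1196 and 1097 CPM in arterial and 924, 925 and 1134 CPM in the venous libraries. No library overlapped between endocardial and coronary ones (log2 -1.41 ± 0.13, edgeR adjusted p = 9.59e-07). Map4k5 and Map4k3 belong to a kinase family that can activate LATS alongside MST1 and MST2. Map4k5 averaged 91.3 ± 8.14 CPM in endocardial, 272 ± 39.9 CPM in arterial and 269 ± 25.7 CPM in the venous libraries (SD, n = 3 each; log2 -1.57 ± 0.15 against coronary, edgeR adjusted p = 1.67e-06). Map4k3 averaged 69.3 ± 17.2 CPM in endocardial, 333 ± 56.5 CPM in arterial and 133 ± 18.9 CPM in the venous libraries (SD, n = 3 each). It was lower than in coronary libraries (log2 -1.60 ± 0.19, edgeR adjusted p = 1.25e-05) and, between the coronary populations, higher in arterial ones (log2 1.32 ± 0.20, edgeR adjusted p = 0.00219). Limd1, another LIM protein that binds LATS, averaged 41.5 ± 6.08 CPM in endocardial, 78.8 ± 15.4 CPM in arterial and 78.3 ± 3.18 CPM in the venous libraries (SD, n = 3 each; log2 -0.92 ± 0.18 against coronary, edgeR adjusted p = 0.00177).

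The core genes of the cascade differed little in their estimates. Stk3, Stk4, Mob1a and Mob1b (the MST kinases and the MOB1 adaptors) and Nf2 (merlin, which recruits LATS to membranes) were not called in any comparison. Their log2 differences from coronary libraries ran from -0.23 (Mob1a, 95% interval -0.52 to 0.05) to 0.10 (Stk3, -0.25 to 0.44). Sav1, the adaptor of the MST kinases, was called lower (log2 -0.51 ± 0.16, edgeR adjusted p = 0.0375). It had 90.6, 67.3 and 73.8 CPM in endocardial, 109, 117 and 97.9 CPM in arterial and 122, 105 and 111 CPM in the venous libraries. That call ended without any 1 of endocardial replicates 2 and 3, arterial replicate 2 and venous replicates 1 to 3 (edgeR adjusted p = 0.0627 to 0.195). Of the TEAD cofactors, Vgll4, a repressor that competes with YAP, averaged 37.6 ± 5.07 CPM in endocardial, 34.3 ± 12.4 CPM in arterial and 37.3 ± 2.59 CPM in the venous libraries (SD, n = 3 each; edgeR adjusted p = 0.904 against coronary). Vgll3 had 0 counts in each endocardial library and at most 3.45 CPM in a coronary one, and no fold is given.

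Against arterial libraries 5 regulators were higher, 7 lower and 30 not called (5.75% higher and 5.92% lower over all genes), and against venous libraries 4, 5 and 33 (4.44% and 5.81% over all genes). Between arterial and venous libraries 1 (Map4k3) was higher and 1 (Ajuba) lower, beside 0.31% and 0.76% of all genes. The Ajuba call in that comparison (log2 -1.53 ± 0.34, edgeR adjusted p = 0.0392) ended when only the populations compared were fitted (0.112) and without each library in turn other than endocardial replicate 1 (0.052 to 0.172).

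Published targets of YAP, TAZ and TEAD were taken from a 22-gene signature known from tumour tissue, without its members Amotl2 and Lats2, so that 20 were listed and 19 tested. Foxf2 did not pass the filter. Ptpn14 is on this list and on that of the regulators. Against coronary libraries 6 targets were higher, 1 was lower and 12 were not called, beside 6.91% higher and 7% lower over all genes. The median log2 fold change was 0.65, against 0.0772 over all genes. The classical readouts were not among those called. Ccn1 (CYR61) had 175, 128 and 175 CPM in endocardial, 195, 204 and 176 CPM in arterial and 192, 161 and 232 CPM in the venous libraries (log2 -0.28 ± 0.16, edgeR adjusted p = 0.311). Ccn2 (CTGF) had 23.9, 17.6 and 32 CPM in endocardial, 20.1, 7.71 and 6.74 CPM in arterial and 27.4, 26.9 and 16.2 CPM in the venous libraries. The populations overlapped (log2 0.58 ± 0.34, edgeR adjusted p = 0.337), and Ccn2 passed without arterial replicate 1 (0.0419). Ankrd1, a stress-response gene of heart and endothelium, averaged 7.06 ± 1.49 CPM in endocardial, 3.27 ± 0.545 CPM in arterial and 4.89 ± 1.31 CPM in the venous libraries (SD, n = 3 each; edgeR adjusted p = 0.289).

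**Figure D4:**
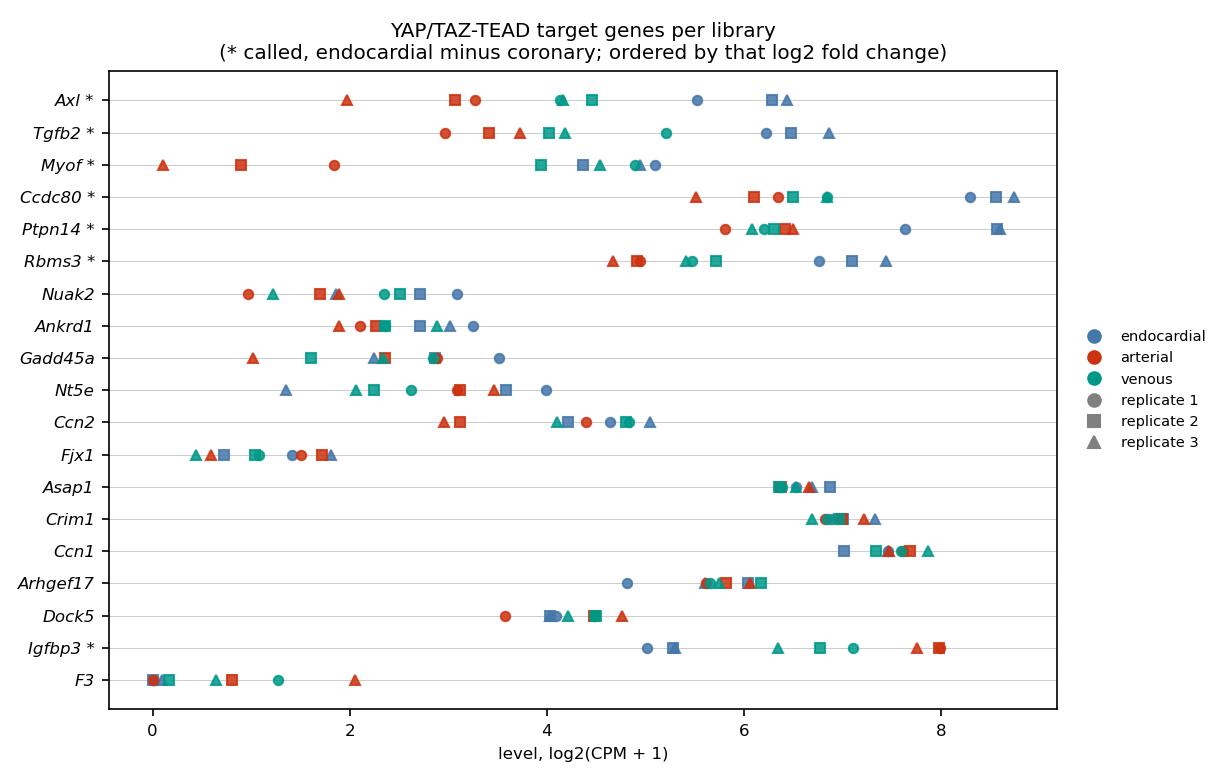
Level of the 19 tested target genes in each library (horizontal axis, log2 of CPM plus 1), ordered from top to bottom by the log2 fold change of endocardial against coronary libraries, with colours for populations, symbols for replicates and an asterisk for called genes. Axl, Tgfb2, Ccdc80, Ptpn14 and Rbms3 have all 3 endocardial libraries to the right of the coronary ones, Igfbp3 has them to the left, and Ccn1 and Ccn2 overlap.

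Called targets had large folds. Ccdc80, a secreted matrix protein gene, had 313, 375 and 426 CPM in endocardial, 80.2, 67.6 and 44.7 CPM in arterial and 114, 89.2 and 114 CPM in the venous libraries. The lowest endocardial library was far above the highest coronary one (log2 2.17 ± 0.17, edgeR adjusted p = 1.50e-07). Axl, a receptor tyrosine kinase gene, had 44.8, 77 and 85.8 CPM in endocardial, 8.67, 7.36 and 2.93 CPM in arterial and 16.5, 21 and 16.9 CPM in the venous libraries (log2 2.69 ± 0.29, edgeR adjusted p = 5.90e-06). Tgfb2, a TGF-beta ligand of cardiac cushions, averaged 92.3 ± 21.2 CPM in endocardial, 9.57 ± 2.7 CPM in arterial and 22.8 ± 11.5 CPM in the venous libraries (SD, n = 3 each; log2 2.64 ± 0.27, edgeR adjusted p = 5.64e-06). Rbms3, an RNA-binding protein gene, averaged 138 ± 32.6, 27.8 ± 2.94 and 45.6 ± 5.43 CPM in the same order (SD, n = 3 each; log2 1.96 ± 0.17, edgeR adjusted p = 4.42e-07). In the opposite direction, Igfbp3, which binds insulin-like growth factors, had 31.3, 37.7 and 38.3 CPM in endocardial, 252, 251 and 215 CPM in arterial and 137, 108 and 80.3 CPM in the venous libraries. Its levels formed 3 ranges without overlap (log2 -2.17 ± 0.19 against coronary, edgeR adjusted p = 4.65e-07, and 1.14 ± 0.20 for arterial against venous libraries, edgeR adjusted p = 0.00622).

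Myof, a membrane repair gene, was called although its endocardial and venous libraries overlapped. It had 33.1, 19.6 and 29.7 CPM in endocardial, 2.57, 0.863 and 0.0732 CPM in arterial and 28.8, 14.3 and 22.3 CPM in the venous libraries. Arterial libraries were near 0 and the others were not. Myof was called against coronary libraries (edgeR adjusted p = 0.0148). Arterial libraries were also called below venous ones (edgeR adjusted p = 0.0335), and this call ended when only the populations compared were fitted (0.0706) and without any 1 of the endocardial or venous libraries or arterial replicate 2 (0.0723 to 0.228). All 12 fibroblast markers, like Myof, Axl and Ccdc80, had their lowest mean in arterial libraries, and Dpep1 was at 0 there. Amotl2 (95.1 CPM), Amotl1 (205) and Yap1 (46.8), the members called against coronary libraries, were also lowest in arterial ones. Not all called targets were. Ptpn14 had its lowest mean in venous libraries (72.6 CPM, against 76.1 in arterial ones) and Igfbp3 in endocardial ones (35.8). Of the 12 markers, 7 were called higher and 0 lower in endocardial than in coronary libraries. Against arterial libraries 8 were higher and 0 lower. Between endocardial and venous libraries the markers went both ways, with 4 higher, 3 lower and 5 not called. Lum averaged 63.1 CPM in endocardial and 15.8 CPM in venous libraries and Pdgfra 112 and 32.4 CPM, while Col1a1 averaged 26.6 and 149 CPM and Dpt 2.52 and 35 CPM. The part of fibroblast RNA in these results was not tested.

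Against arterial libraries 6 targets were higher, 1 lower and 12 not called (5.75% higher and 5.92% lower over all genes), and against venous libraries 5, 1 and 13 (4.44% and 5.81% over all genes). Between arterial and venous libraries 1 (Igfbp3) was higher, 1 (Myof) lower and 17 not called, beside 0.31% and 0.76% of all genes.

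Genes whose levels followed those of the members most closely were found by Pearson's r of log2 CPM over the 9 libraries among 6654 genes whose mean log2 CPM reached 4. The 9 libraries share populations, so that r mostly reflects the difference between them and is a description. For Amotl2 the 5 highest were Igf2r (r = 0.985), Creb3l2 (0.981), Acer2 (0.98), Lpcat3 (0.979) and Prickle2 (0.978). For Amotl1 they were Fbln2 (0.985), Ndn (0.98), Ankrd50 (0.98), Fabp5 (0.977) and Eln (0.976). For Yap1 they were Cd164 (0.951), Dync2h1 (0.946), Atf6 (0.944), Laptm4a (0.937) and Ralgps2 (0.934). For Tead1 they were Ctla2a (0.943), Rhobtb3 (0.943), Dnmt3a (0.925), Zbtb34 (0.918) and Sema4d (0.917). None of the 4 groups held another of the 10 genes. Tead3 and Tead4 were below the level searched and could not appear. Lists of 5 genes do not show whether the members vary together.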

How the data were processed

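RNA from freshly sorted cells was sequenced as single reads from 1 ng of total RNA, per the labels' protocols. The deposited file holds expected counts per gene. Per the submitters' processing notes, the authors used CASAVA 1.8.2, cutadapt 1.3 and RSEM 1.2.3 with GRCm38 and Ensembl release 76. Neither aligner nor strandedness is given in the sources used here. Of values above 0, 45.5% were not whole, and all were rounded to whole counts. The 17103 genes that passed edgeR's low-count filter (minimum count 10) were fitted over all 9 libraries with 1 mean per population (edgeR 4.0.16, TMM, robust quasi-likelihood F test, R 4.3.3). A gene was called at an adjusted p under 0.05. The SE is the absolute log2 fold change over the square root of F. The common dispersion was 0.409. On simulated data over 17103 genes, 4-fold changes were recovered in 54% to 72% of cases per comparison and 2-fold changes in 13% to 25%. False calls made up 3.8% to 8.11% of all calls there. The changes were placed in random genes above 1 CPM, so these shares are not those of the 10 genes. A missed threshold does not show that a gene did not differ. Gene lengths came from GENCODE release 21 for mouse.

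The labels' batch number equals the replicate number. It was taken to pair the libraries only for counting directions within batches and in the replicate block. The main fit did not use it. Deviations from the population means correlated at 0.289 to 0.405 within batch 1, 0.169 to 0.297 within batch 2 and -0.339 to 0.0986 within batch 3. Libraries of different batches gave -0.477 to 0.334, a range that holds those of batches 2 and 3, so the correlations do not settle the pairing. With 1 library of each population, a batch cannot be tested alone, and directions within batches are counted instead.

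All 10 genes were named in every comparison. From the lists of regulators and targets the rule named up to 6 called genes with the smallest p per list and comparison, and Ccn1, Ccn2, Ankrd1, Axl, Nf2, Stk3, Stk4, Sav1, Mob1a, Mob1b, Vgll3 and Vgll4. Most-alike genes were sought for the 4 members with the smallest p. The members and lists were chosen with earlier results of these data known. Alternatives were DESeq2 1.42.0, RLE scaling, no filter, the replicate block, fitting only the populations compared, and leaving out each library.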

Additional observations from a re-analysis of the deposited data

How the results depend on the processing

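Of 1200 log2 fold changes recomputed under the alternatives, 1135 kept their direction and side of the threshold. The 1200 include the 10 genes in every comparison, mostly not called, and the list genes with the smallest p. That choice favoured a high share. Among the 10 genes, only the calls of Amotl2 against coronary and against arterial libraries held under every alternative. The replicate block changed no call of the 10 genes, and called 2722 genes for endocardial minus coronary, 2312 for endocardial minus arterial, 2097 for endocardial minus venous and 225 for arterial minus venous. Fitting only the populations compared gives the same fit for endocardial minus coronary and was not run there. RLE scaling moved the median of all genes by less than 0.1.

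Leaving out 1 library gave 1 to 3 of the 10 genes called for endocardial minus coronary, 1 to 3 for endocardial minus arterial and 0 to 2 for endocardial minus venous, with the lowest count of each without endocardial replicate 2. For endocardial minus venous the count was also 0 without venous replicate 3. Calls over all genes fell too. Without endocardial replicate 2 they were 1805, 1556 and 1348 of 19211 genes in these 3 comparisons, against 2379, 1996 and 1753 of 17103 with all libraries. DESeq2 called 3 of the 10 genes for endocardial minus venous, beside 2468 of 28652 genes. Over the left-out libraries, all genes called for endocardial minus coronary were 1805 to 2493. Called regulators were 9 to 14 for endocardial minus coronary and 1 to 2 for arterial minus venous, where the fit of only the populations compared gave 1. Called targets for arterial minus venous were 1 to 5, and 5 without the filter, 4 with DESeq2 and 1 with only the populations compared. All genes called for arterial minus venous were 120 (without venous replicate 1) to 225, 439 without the filter and 410 with DESeq2. For endocardial minus venous they were 1130 (without venous replicate 3) to 1871.

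Differences near 0 changed sign. For endocardial minus coronary the log2 range over the left-out libraries was -0.04 to 0.59 for Tead4, -0.16 to 0.10 for Nf2 (-0.02 without the filter), -0.15 to 0.11 for Stk4, -0.21 to 0.00 for Mob1b and -0.06 to 0.18 for Vgll4. For arterial minus venous it was -0.05 to 0.19 for Wwtr1, -0.15 to 0.04 for Tead2, -0.67 to 0.97 for Tead3 and -0.36 to 0.31 for Tead4. Tead4 ran from -0.02 to 0.63 for endocardial minus arterial and from -0.07 to 0.64 for endocardial minus venous. The cause was not tested. Of 60 levels recomputed with RLE scaling or, per kilobase, with the longest transcript, 19 moved by more than 1 SD, all with the longest transcript. Tead3 had at most 50 and Vgll3 at most 56 counts in a library, which limits both.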

Other observations

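Beyond the regulators named by rule, 6 others were called between endocardial and coronary libraries, and these were chosen after their values were seen. Fat1, a giant cadherin, averaged 93.9 ± 14.7 CPM in endocardial, 15.4 ± 7.93 CPM in arterial and 37.6 ± 10.6 CPM in the venous libraries (SD, n = 3 each; log2 1.96 ± 0.27, edgeR adjusted p = 0.000151). The kinase genes Taok3 and Tnik were also higher, with log2 differences of 1.04 ± 0.28 and 1.27 ± 0.35 (edgeR adjusted p = 0.0187 and 0.0211). Rassf4 and Rassf2, of a family of RAS-association proteins, were lower. Rassf4 averaged 2.54 ± 3.13 CPM in endocardial, 22.2 ± 6.81 CPM in arterial and 15.1 ± 1.74 CPM in the venous libraries (edgeR adjusted p = 0.018), and Rassf2 5.07 ± 3.87, 28.5 ± 9.55 and 24.4 ± 3.78 CPM (edgeR adjusted p = 0.0307; SD, n = 3 each). Ywhae, a 14-3-3 protein gene, averaged 475 ± 65.6, 722 ± 109 and 759 ± 153 CPM in the same order (SD, n = 3 each; log2 -0.64 ± 0.16, edgeR adjusted p = 0.0105).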
